A study of Mus musculus with 6 samples.

Results

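Somatostatin, its relative cortistatin and the 5 somatostatin receptors were read on expression arrays from the brains of mice lacking Gb5. Every probe set annotated to exactly 1 of the genes Sst, Cort, Sstr1, Sstr2, Sstr3, Sstr4 and Sstr5 was taken. This gave 9 probe sets of 7 genes, among 45037 probe sets of 18193 genes in all. Sstr3 and Sstr4 had 2 probe sets each, the other 5 genes had 1, and 0 probe sets named a member together with another gene. The samples were 3 from Gb5-deficient mice (Gb5ko) and 3 from wild-type mice (Gb5wt). Each was total RNA of the brain without its cerebellum, hybridised to 1 array. The labels describe littermates matched for age and sex, and the series text calls the samples biological replicates. Age, strain, the sex of each animal and the way the mutant allele was made are not given in the sources used here, so p-values measure the spread between these samples.

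Somatostatin and cortistatin are secreted peptides cut from separate precursors, and both bind all somatostatin receptors. In the cortex and hippocampus Sst marks a large class of inhibitory interneurons, and in the hypothalamus it marks neurons that restrain growth hormone release. The receptors couple to Gi and Go proteins, lower cyclic AMP, open GIRK potassium channels and close voltage-gated calcium channels. Gb5, the product of Gnb5, pairs with RGS proteins of the R7 family, which speed the switching off of Gi and Go alpha subunits, so these receptors signal through G proteins on which the Gb5 complexes act.

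Cyclic AMP also acts on the Sst gene itself, through a cyclic AMP response element upstream of its start that the factor CREB binds. The palindrome TGACGTCA of this element, and its core TGACG on either strand, were searched in the 250 bases upstream of annotated starts (RefSeq, GRCm38.p6). The sequence table held 5 of the 7 genes, with 6 windows. The full palindrome was found for Sst, on chromosome 16, and Sstr2, on chromosome 11, and the core alone for Cort, on chromosome 4, and 1 of the Sstr3 windows, on chromosome 15. Among all 32851 windows, 1.55% held the palindrome and 17.8% held the core, which every palindrome contains. The 4 matches are shown as 30 bases each, 5′ to 3′ on the gene's strand, with the motif in capitals.
Sst: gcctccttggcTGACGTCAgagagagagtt
Sstr2: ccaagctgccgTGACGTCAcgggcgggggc
Cort: ctccggcttgtgCGTCAccgcgtgagtgtg
Sstr3: acgtgtcctggagatggggggTGACGtacc
These lie at chr16:23890874-23890903 (minus strand) for Sst, chr11:113619258-113619287 (plus strand) for Sstr2, chr4:149126764-149126793 (minus strand) for Cort and chr15:78544346-78544375 (minus strand) for Sstr3. The motif begins 48 bases upstream of the annotated start for Sst and 58 for Sstr2. It begins 18 bases upstream for Cort and 9 for Sstr3. The Sst and Sstr3 stretches lie within the span that the gene table gives those genes, and the other 2 lie outside it. A match describes these letters and shows no binding.

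The arrays were first checked against their labels. Gnb5 fell by 5.62 ± 0.193 (SE) on the log2 scale, at 3.41 ± 0.361 in Gb5ko and 9.03 ± 0.258 in Gb5wt brains (SD, n = 3 each; limma adjusted p = 4.48e-06). The neuronal gene Snap25 stood at percentile 99.4 of the table and the cerebellar granule cell gene Gabra6 at percentile 17.4, while the Purkinje cell gene Pcp2 lay at percentile 78.2. Pituitary growth hormone, Gh, read 10.62 in Gb5ko replicate 3, against 4.20 to 6.21 on the other arrays. Of the transcripts that tell male from female, Eif2s3y read 2.96, 11.28 and 6.97 in Gb5ko and 11.26, 6.05 and 4.05 in Gb5wt brains, and Xist 10.65, 8.31 and 10.62 in Gb5ko and 4.96, 10.81 and 10.70 in Gb5wt brains. Both were high on Gb5ko replicate 2, and Eif2s3y was intermediate beside a high Xist on Gb5ko replicate 3 and Gb5wt replicate 5. Whether any array holds RNA of several animals was not tested. For some family probe sets, results are therefore also given without the arrays of highest Gh, or of highest Eif2s3y, in each genotype. Those of highest Gh were Gb5ko replicate 3 and Gb5wt replicate 6. Those of highest Eif2s3y were Gb5ko replicate 2 and Gb5wt replicate 4. Gb5wt replicate 5 was left out only by itself. At the threshold used throughout, a limma adjusted p under 0.05, there were 12 calls over the 45037 probe sets (0.0266%), 2 higher and 10 lower in Gb5ko.

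None of the 9 probe sets of the somatostatin family passed that threshold. None passed at an adjusted p under 0.1 either, as 0.0977% of all probe sets did. Their limma adjusted p values ran from 0.267, for the bright Sstr3 probe set, to 0.966, for the dim one. At an unadjusted p under 0.05 the bright Sstr3 probe set was the only one of the 9 to pass, against 14.4% of all probe sets, or 8.09% counting those higher in Gb5ko. The median size of the 9 differences, without regard to sign, was 0.20 on the log2 scale, against 0.13 over all probe sets. All 9 intervals of 95% excluded a doubling and a halving of the array value in Gb5ko, and 8 of them contained 0. Only 5 of the 9 probe sets lay at or above the median level. For the dim ones, which could not be told from background, the intervals do not exclude such a change in the transcript.

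**Figure D1:**
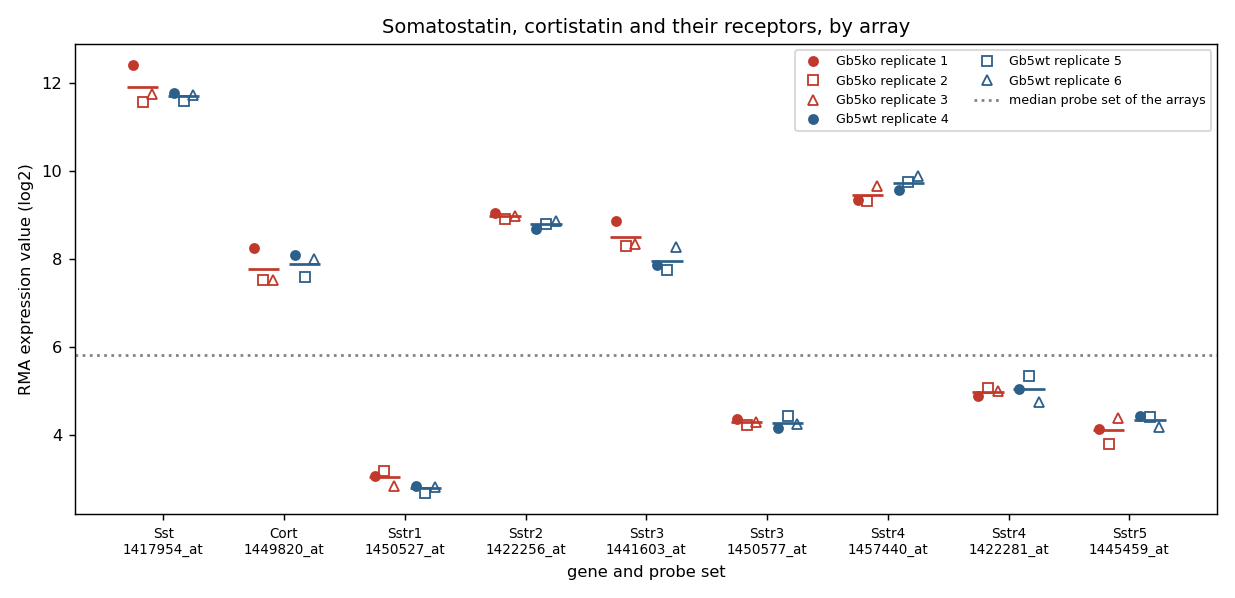
RMA log2 expression value of each of the 9 probe sets on the 6 arrays, with Gb5ko in red and Gb5wt in blue, a marker per array and a bar at each group mean. Sst stands highest, 5 probe sets lie above the dotted median of all probe sets, and Gb5ko replicate 1 reads high for Sst, Cort and the bright Sstr3 probe set.

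The ligand Sst gave a bright signal. Its probe set, 1417954_at, read 12.40, 11.56 and 11.75 in Gb5ko and 11.78, 11.58 and 11.74 in Gb5wt brains (log2 values). The 3 wild-type arrays lay close together, at a mean of 11.70 ± 0.104 (SD, n = 3), whereas the Gb5ko arrays, at 11.90 ± 0.442 (SD, n = 3), held both the highest and the lowest value. The difference of 0.20 ± 0.197 (SE), 1.15-fold, did not pass (limma adjusted p = 0.656). It rested on Gb5ko replicate 1, without which it was -0.05 (limma adjusted p = 0.921). Without both arrays of highest Eif2s3y it was 0.42 (limma adjusted p = 0.519). The mean level put Sst at percentile 97.3 of all probe sets, which depends on the binding of its probes as well as on the transcript.

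Cort, which encodes the related peptide cortistatin and is made mainly in cortical and hippocampal interneurons, was read by probe set 1449820_at. It gave 8.25, 7.51 and 7.52 in Gb5ko and 8.10, 7.59 and 7.99 in Gb5wt brains. The groups overlapped, and Gb5ko replicate 1 again stood above its 2 companions. The difference was -0.13 ± 0.213 (SE) with a limma adjusted p of 0.81. Its sign was not fixed: it was -0.38 without Gb5ko replicate 1 and 0.095 without both arrays of highest Eif2s3y, Gb5ko replicate 2 and Gb5wt replicate 4. The spread of Cort and Sst within groups, pooled SDs of 0.354 and 0.321, was wider than that of 97.1% and 95.3% of all probe sets.

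Because Sst and Cort were both high on Gb5ko replicate 1, their gap was also read within each array. Sst minus Cort was 4.15, 4.05 and 4.23 in Gb5ko and 3.68, 3.99 and 3.75 in Gb5wt brains. These groups did not overlap, and the gap was 0.34 wider in Gb5ko. An exact permutation test, two-sided, gave p = 0.1, the smallest that 3 against 3 arrays can give. The gap compares the genotypes for 2 fixed probe sets and does not say how many transcripts of each gene there were.

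The receptors are ordered here by the array value of their brightest probe set, which depends on the binding of its probes as well as on the transcript and so ranks signals, not transcript amounts. Sstr4 came first at a mean of 9.59 over the 6 arrays, followed by Sstr2 at 8.88, Sstr3 at 8.23, Sstr5 at 4.22 and Sstr1 at 2.90. Sstr4 read above Sstr2, and Sstr2 above Sstr3, on 6 of 6 arrays. The dim probe sets of Sstr4 and Sstr3 averaged 5.01 and 4.28, below Sstr2 and below the median probe set. The place of these receptors therefore rests on the probe set chosen. The closest neighbours were Sstr2 and Sstr3, apart by 0.65 ± 0.282 (SD over 6 arrays) and by 0.19 at the least, on Gb5ko replicate 1. Sstr5 and Sstr1 lay below the median probe set, at percentiles 31.6 and 8.91. Without detection calls neither could be told from background, so their order has no meaning and a difference there may be too small to read.

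Sstr3, the receptor that neurons place in the membrane of their primary cilium, had the largest difference of the family. Its bright probe set, 1441603_at, read 8.86, 8.29 and 8.35 in Gb5ko and 7.87, 7.76 and 8.26 in Gb5wt brains. Every Gb5ko value lay above every Gb5wt value, but the gap between the nearest arrays, Gb5ko replicate 2 and Gb5wt replicate 6, was narrow beside the spread within the groups. The difference was 0.54 ± 0.183 (SE; 95% interval 0.13 to 0.95), 1.45-fold, with an unadjusted limma p of 0.016 and an adjusted p of 0.267. A difference of at least this size was found at 1.75% of all probe sets, and an unadjusted p at least as small at 5.97%. The pooled SD within groups, 0.291, was wider than that of 92.7% of all probe sets. With 1 array left out the difference lay between 0.36, without Gb5ko replicate 1, and 0.69, without Gb5wt replicate 6. It was 0.77 without both arrays of highest Gh and 0.60 without both of highest Eif2s3y, and passed in none of these fits.

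The other Sstr3 probe set did not show it. Probe set 1450577_at read 4.36, 4.21 and 4.29 in Gb5ko and 4.16, 4.42 and 4.24 in Gb5wt brains. Its groups overlapped, and the difference was 0.01 (95% interval -0.23 to 0.26; limma adjusted p = 0.966). It is the one listed against a RefSeq transcript, whereas the bright probe set is listed against another record. At percentile 32.4 the dim probe set was not shown to lie above background. Which part of the gene either probe set reads was not analysed here.

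Sstr2, a widely expressed receptor on neurons that is rapidly internalised when somatostatin binds, was read by probe set 1422256_at. It gave 9.05, 8.91 and 8.98 in Gb5ko and 8.69, 8.80 and 8.87 in Gb5wt brains. The 3 Gb5ko values lay just above the 3 Gb5wt values, with tighter groups than most: a pooled SD of 0.0822, at percentile 13.6 of all probe sets. The difference was 0.20 ± 0.102 (SE; 95% interval -0.03 to 0.43), 1.15-fold, and did not pass (limma adjusted p = 0.399). With 1 array left out it stayed between 0.15 and 0.24, and it was 0.24 without both arrays of highest Gh. Sstr2 and Sstr3 were the 2 of 9 probe sets whose groups did not overlap, both higher in Gb5ko, against 21.5% of all probe sets in either direction and 12.5% in this one.

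Sstr4, a receptor of cortical and hippocampal pyramidal neurons, differed in the other direction. Its bright probe set, 1457440_at, read 9.35, 9.32 and 9.67 in Gb5ko and 9.56, 9.74 and 9.88 in Gb5wt brains. The groups overlapped through Gb5ko replicate 3, which lay above Gb5wt replicate 4. The difference was -0.28 ± 0.133 (SE; 95% interval -0.58 to 0.02), with a limma adjusted p of 0.368. It kept its sign with each array left out, from -0.39 to -0.21, and was -0.32 without both arrays of highest Gh. The dim Sstr4 probe set, 1422281_at, read 4.88, 5.06 and 5.01 in Gb5ko and 5.05, 5.34 and 4.74 in Gb5wt brains, which overlapped fully. Its difference was -0.06 ± 0.152 (SE; limma adjusted p = 0.878), and -0.23 without both arrays of highest Gh. As for Sstr3, the dim probe set is the one listed against a RefSeq transcript.

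Sstr1 and Sstr5 gave low values. Sstr1, known as an autoreceptor on somatostatin neurons, read 3.06, 3.18 and 2.84 in Gb5ko and 2.84, 2.67 and 2.82 in Gb5wt brains by probe set 1450527_at. The groups touched, since Gb5ko replicate 3 and Gb5wt replicate 4 had the same value, and the difference was 0.25 ± 0.118 (SE; limma adjusted p = 0.369). Without both arrays of highest Gh the Sstr1 difference was 0.37. Sstr5, which is best known from the pituitary and the endocrine pancreas, read 4.13, 3.80 and 4.38 in Gb5ko and 4.42, 4.42 and 4.19 in Gb5wt brains by probe set 1445459_at. This probe set, the only one for Sstr5, is not listed against a RefSeq transcript. The groups overlapped, with a difference of -0.24 ± 0.154 (SE; limma adjusted p = 0.5). Gb5ko replicate 3, where Gh was highest, had the highest Sstr5 value of the Gb5ko arrays, whereas Gb5wt replicate 6, where Gh was highest among Gb5wt, had the lowest Sstr5 value of its group. Without both arrays of highest Gh the Sstr5 difference was -0.45 (limma adjusted p = 0.414), and without both of highest Eif2s3y it was -0.04 (limma adjusted p = 0.929). The part of pituitary tissue in these values was not tested.

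**Figure D2:**
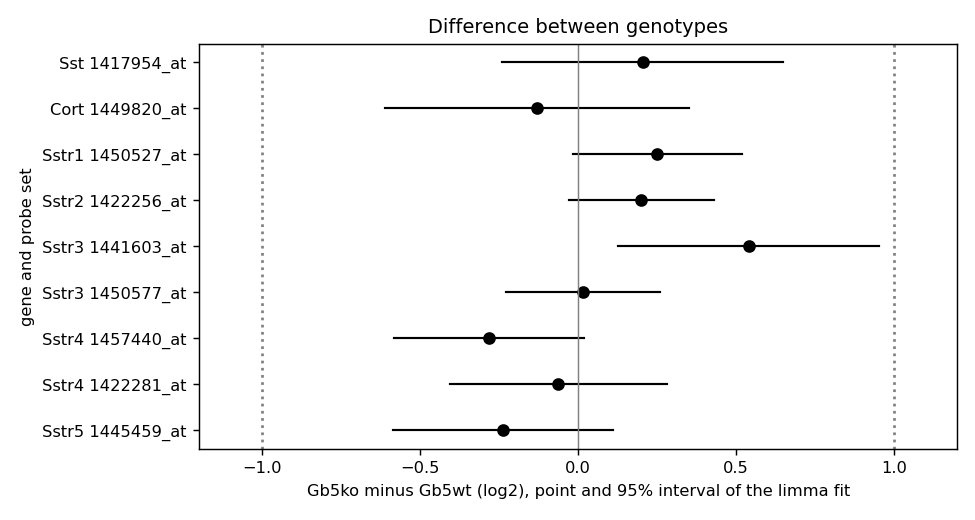
Difference between Gb5ko and Gb5wt for each of the 9 probe sets, on the log2 scale, with the 95% interval of the limma fit; dotted lines mark a doubling and a halving. The interval of the bright Sstr3 probe set, 0.13 to 0.95, is the only one of the 9 that leaves out 0.

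Relative levels within an array remove any shift that all probe sets of an array share. The 7 genes, each by its brightest probe set, form 21 pairs, and in 4 of them Gb5ko and Gb5wt did not overlap. That is no more than the 22.9% found among all pairs of the 18193 genes. The widest shift was that of Sstr3 relative to Sstr4. Sstr3 minus Sstr4 was -0.48, -1.02 and -1.32 in Gb5ko and -1.69, -1.98 and -1.62 in Gb5wt brains. By these bright probe sets Sstr3 was thus 0.82 closer to Sstr4 in Gb5ko, with Gb5ko replicate 1 the farthest from the wild types. The dim probe sets of Sstr3 and Sstr4, which differed by 0.01 and -0.06 between the genotypes, were not paired.

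Sstr2 also stood closer to Sstr4, by the bright Sstr4 probe set, in Gb5ko. Sstr2 minus Sstr4 was -0.29, -0.41 and -0.68 in Gb5ko and -0.87, -0.94 and -1.01 in Gb5wt brains, a shift of 0.48. The remaining pairs without overlap were Sst minus Cort, given above, and Cort minus Sstr3, which was -0.61, -0.78 and -0.83 in Gb5ko and 0.23, -0.16 and -0.27 in Gb5wt brains. In all 4 the exact permutation p was 0.1, two-sided and not adjusted over the 21 pairs, so none could pass.

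**Figure D3:**
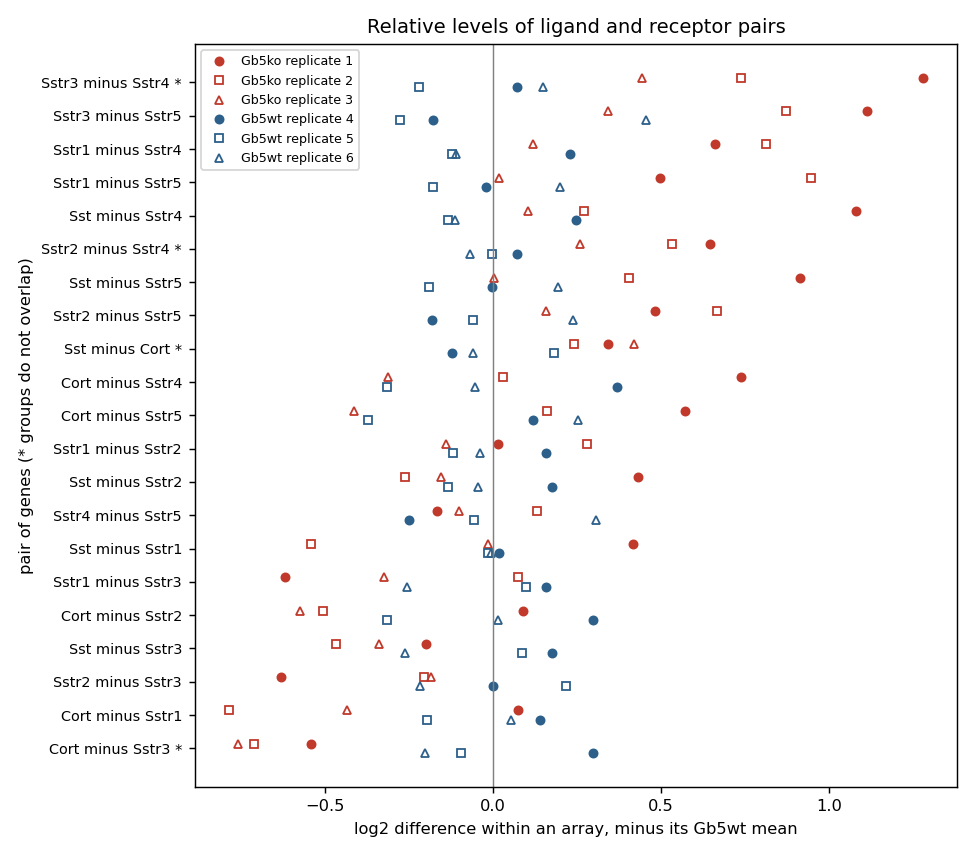
Log2 difference between 2 genes within each array, less its Gb5wt mean, for the 21 pairs of the 7 genes (brightest probe sets); Gb5ko is red, Gb5wt is blue, with a marker per array. An asterisk marks the 4 pairs whose groups do not overlap, and Sstr3 minus Sstr4 has the widest shift, 0.82.

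Of the genes known from Sst interneurons, 11 other than Sst were measured. Other cells of the brain express several of them too, so their values do not follow these neurons alone. All 11 had a positive difference, with a median of 0.12, against 59.9% of the 18193 genes and a median of 0.05 over them. Read by the probe set of largest SD of each gene, 9 of the 11 were positive, with a median of 0.08. None passed in limma (0.022% of all genes did), and 1 had an unadjusted p under 0.05 (15.6% of all genes). That gene was Lhx6, a transcription factor that these interneurons need for their fate. Lhx6 read 8.79, 8.49 and 8.51 in Gb5ko and 8.39, 8.30 and 8.19 in Gb5wt brains, without overlap, a difference of 0.30 ± 0.117 (SE; limma adjusted p = 0.302). Grin3a, an NMDA receptor subunit of these cells, differed by 0.20, and the transcription factor Sox6 by 0.17. The mean of the list was 9.17, 9.11 and 9.05 in Gb5ko and 8.97, 9.04 and 8.95 in Gb5wt brains. In bulk tissue, a difference in the number of cells of a type and one in RNA per cell cannot be told apart.

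Other genes of GABA neurons, some of them, such as Gad1 and Slc32a1, shared with Sst interneurons, lay on both sides of 0. Of 11 measured, 6 had a positive difference and 5 a negative one, with a median of 0.03. Gad1, the enzyme that makes GABA, read 11.10, 11.41 and 11.37 in Gb5ko and 11.55, 11.74 and 11.58 in Gb5wt brains, a difference of -0.33 ± 0.118 (SE). Slc32a1, the vesicular GABA transporter, had a difference of 0.28 ± 0.112 (SE), and the cannabinoid receptor Cnr1 one of -0.34 ± 0.146 (SE). These 3 had limma adjusted p values from 0.279 to 0.338.

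Genes for enzymes that process precursors such as prosomatostatin, their partners and granule proteins gave 0 of 9 calls. There were 6 positive differences, with a median of 0.08. The gene of the convertase PC2, Pcsk2, was listed but not measured. Carboxypeptidase E, Cpe, which trims basic residues from the cut peptides, read 13.03, 13.11 and 13.23 in Gb5ko and 13.40, 13.43 and 13.42 in Gb5wt brains. It was lower on every Gb5ko array, by a difference of -0.29 ± 0.0993 (SE; limma adjusted p = 0.268). The granule protein Chga had a difference of 0.38 and Scg5, a chaperone of the convertase PC2, one of 0.17. At an unadjusted p under 0.05, 1 gene of these 9 was higher and 1 lower, against 15.6% of all genes in either direction.

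Downstream of the receptors, 0 of 13 effector genes passed, with 9 positive differences and a median of 0.02, or 0.18 by the probe set of largest SD of each gene. The GIRK channel subunit Kcnj3, with a difference of -0.28 ± 0.102 (SE; limma adjusted p = 0.279), was the 1 gene of the list with an unadjusted p under 0.05. Gnai1, a Gi alpha subunit, differed by -0.22 and the GIRK subunit Kcnj9 by 0.49, with 1 low wild-type array at 8.50. Of 8 genes for arrestins, receptor kinases and scaffolds, 0 passed and 5 were positive, with a median of 0.03, or 0.24 by the probe set of largest SD. Arrb1, an arrestin that binds phosphorylated receptors, differed by 0.31, the scaffold Mpdz by -0.22 and the receptor kinase Grk6 by 0.21. The groups of 5 of these 8 genes did not overlap, against 25.1% of all genes, the largest such count among the 15 lists. At an unadjusted p under 0.05 there were 0 of the 8, against 15.6% of all genes.

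Genes of the neuronal primary cilium, where Sstr3 resides, also gave 0 calls, and 0 of the 12 had an unadjusted p under 0.05. Their median difference was 0.06, with 8 positive, or 0.14 by the probe set of largest SD, with 7 positive. Bbs2, a BBSome subunit, differed by 0.20, the ciliary receptor Gpr161 by 0.15 and the intraflagellar transport gene Ift20 by 0.17. Genes of the same kinds went the other way: the 4 negative ones were Bbs1 at -0.12, Bbs7 at -0.10, Tulp3 at -0.09 and Ift88 at -0.05.

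Hypothalamic peptide and growth hormone axis genes held 0 of 11 calls and a median of 0.12, with 8 positive differences. Crh, the stress peptide, read 9.15, 9.40 and 9.52 in Gb5ko and 9.71, 9.79 and 9.70 in Gb5wt brains, a difference of -0.37 ± 0.118 (SE; limma adjusted p = 0.254). Pmch, for melanin-concentrating hormone, differed by 0.30 and galanin, Gal, by 0.50. All 9 measured pituitary markers were positive, against 59.9% of all genes, with a median of 0.42. The mean of the list reached 6.41 on Gb5ko replicate 3, against 4.35 to 4.84 on the other arrays. Lhb, a gonadotropin subunit, differed by 0.52, prolactin, Prl, by 0.42 and Pomc by 0.28, and 0 of the 9 passed. Lhb and Prl lay at percentiles 29.5 and 21.1 of all probe sets and were not shown to lie above background.

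Of the markers of cell types that the tissue can hold, 0 passed. Median differences were 0.00 for 7 forebrain neuron markers and 0.01 for 5 astrocyte markers. They were -0.23 for 4 oligodendrocyte markers, 0.30 for 5 microglia markers, -0.12 for 5 endothelial markers, -0.10 for 5 choroid plexus markers and 0.12 for 7 cerebellar markers. With each gene read by its probe set of largest SD, the medians were -0.13 for forebrain neuron, 0.14 for astrocyte, 0.20 for microglia and 0.25 for cerebellar markers. Among neuron markers, Snap25, of the synaptic release machinery, had a difference of -0.33, Slc17a7, the vesicular glutamate transporter of the cortex, 0.27 and Map2, of dendrites, -0.16. The cerebellar genes Cbln1, Cbln3 and Gabra6 differed by 0.31, 0.42 and 0.30. Cbln3 and Gabra6 were dim, at percentiles 32.9 and 17.4 of all probe sets, and Car8, the 1 negative gene of the 7, differed by -0.03. The mean of the cerebellar list was 6.80, 6.59 and 6.45 in Gb5ko and 6.55, 6.24 and 6.48 in Gb5wt brains. It was highest on Gb5ko replicate 1, as were the means of 7 of the 15 lists, this one included, and Sst, Cort, Sstr2 and the bright Sstr3 probe set. The part of dissection or cell makeup in the family's values was not tested.

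Glial genes with the smallest p were Slc1a3 and Aqp4 of astrocytes, at -0.28 and -0.23, and Aldh1l1, at 0.35. In oligodendrocytes they were the myelin genes Cldn11, at -0.59, Mbp, at -0.20, and Mog, at -0.25, and in microglia Aif1, Csf1r and Cx3cr1, at 0.35, 0.30 and 0.35. The other microglia markers, P2ry12 at -0.20 and C1qa at -0.08, lay on the other side of 0. For the vasculature they were Kdr, Pecam1 and Tek, at -0.17, -0.13 and -0.09, with 4 of the 5 endothelial markers negative and Cldn5 at 0.09. In the choroid plexus Kl and Clic6 stood at -0.35 and -0.26 and Kcne2 at 0.11. Over the 122 different genes of the 15 lists, 0 passed in limma over all probe sets. An unadjusted p under 0.05 was found for 18 of them and for 2832 of all 18193 genes (15.6%).

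**Figure D4:**
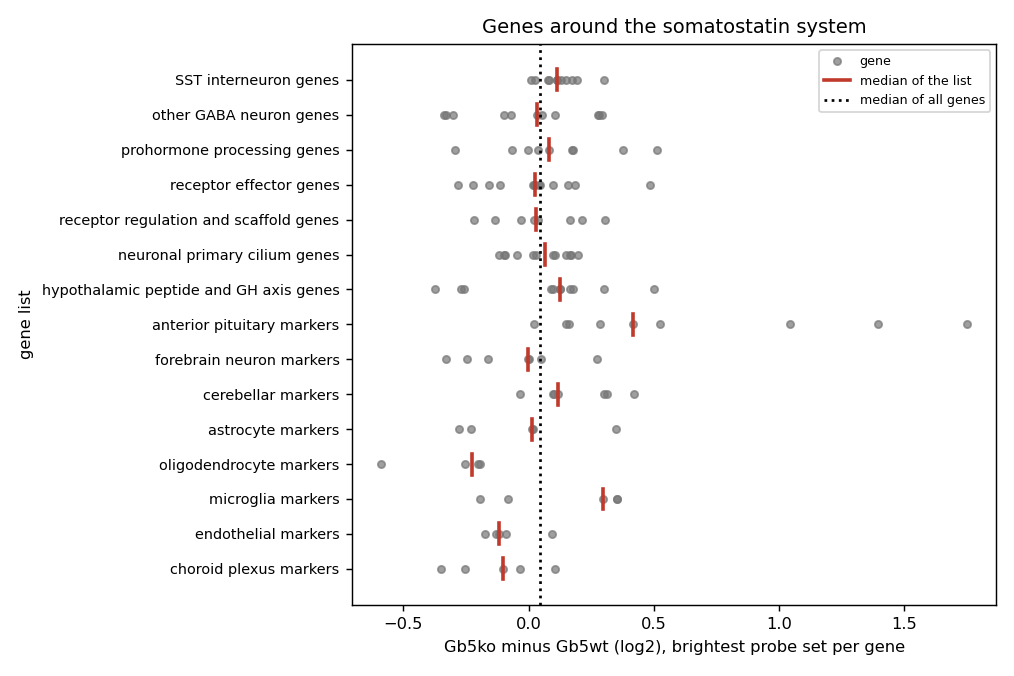
Difference between Gb5ko and Gb5wt, on the log2 scale, of each measured gene in the 15 lists (grey points, brightest probe set), with the median of each list in red and the median of all genes as a dotted line at 0.05. The Sst interneuron genes all lie right of 0, and the pituitary markers spread farthest.

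Genes with the promoter palindrome shown above for Sst and Sstr2 were read as well. Of the 18193 genes, 14452 had a promoter window and 361 held TGACGTCA. Their median difference was 0.05, as over all genes with a window, and 0 of the 361 passed. A positive difference was found for 220 of the 361, and for 59.9% of all 18193 genes. At an unadjusted p under 0.05, in either direction, there were 74, 20.5% of the 361, against 15.6% of genes with a window, a difference that was not tested.

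Patterns over the 6 arrays were compared among 5951 genes at or above the median level with an SD of at least 0.15. For Sst the closest were Srgap1, a GTPase-activating protein of the Slit-Robo pathway, Shkbp1 and the glutamate receptor scaffold Grip2, with Pearson r from 0.992 to 0.995. On each of them Gb5ko replicate 1 stood highest, and 58 genes had an r over 0.95 with Sst. For Sstr4 the closest were Sgpp2, a sphingosine phosphate phosphatase, Trim11 and Gss, the glutathione synthetase, with r from 0.973 to 0.983. These are descriptions over 6 arrays that share 1 normalization, chosen from that many genes. Over the 21 pairs within the family, r over the 6 arrays ran from -0.88 for Sstr1 with Sstr5, both dim, to 0.90 for Sstr2 with Sstr3. It was 0.77 for Sst with Cort as well as for Sst with Sstr3. Sst, Cort, Sstr2 and the bright Sstr3 probe set all read highest on Gb5ko replicate 1. Sstr2 and Sstr3 are also the probe sets whose genotypes did not overlap, which enters their r.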

How the data were processed

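The deposited log2 expression values came from Affymetrix arrays, 1 per sample, from 6 ug of total RNA labelled with biotin, per the labels' protocols. RMA and Partek are named in the submitters' processing notes, with no version. RMA compresses folds that end near background. Values ran from 1.91 to 14.37 with array medians from 5.81 to 5.85 and were used as deposited. Precision is limited by the number of arrays, with a median SE of 0.123 for a difference.

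Of 45101 probe sets, 64 controls were left out. The platform annotation gave 34945 of the rest 1 gene, 932 several and 9160 none listed. RefSeq (GRCm38.p6) matched 34741 of the 34945 by Entrez identifier and was used for names, positions and promoters.

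Gb5ko and Gb5wt were set against each other by linear models with moderated variances (limma 3.58.1, R 4.3.3), two-sided, on all 45037 probe sets with no filter, Benjamini-Hochberg adjusted, with 4 residual and 5.05 prior degrees of freedom. The fit was tested on simulated data. Within-array gaps were compared by exact permutation over the 20 splits of the arrays. Genes in lists were read by their brightest 1-gene probe set. Members, lists and alternatives were chosen with earlier results of these data known. Named are all members, Gnb5, up to 3 genes of each list with the smallest p, and the 3 genes most like Sst and most like the brightest receptor. The genes that check the tissue and the sex of the animals, and the pairs, were chosen after values were seen. Alternatives covered a filter, 3 normalizations, variance models, array weights, thresholds, 1 probe set per gene and arrays left out. Figures used matplotlib 3.10.9.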

Additional observations from a re-analysis of the deposited data

How the results depend on the processing

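No paired analysis was possible because the labels number the arrays 1 to 6 across both genotypes. Of the 9 family probe sets, 0 passed an adjusted p of 0.05 under any alternative, nor one of 0.1 over all arrays, and 1, Sstr3, had an unadjusted p under 0.05. Of 122 recomputed differences 110 kept their sign, and limma adjusted p values ran from 0.174 to 0.998. Sst turned to -0.045 without Gb5ko replicate 1, in a range of -0.045 to 0.38 with 1 array left out. Cort turned to 0.038 without both arrays of highest Gh and 0.095 without both of highest Eif2s3y. The dim Sstr3 probe set turned to -0.0085 after quantile and -0.0099 after cyclic loess normalization, to -0.020 with array weights, to -0.0021 without both arrays of highest Gh and to -0.0043 without both of highest Eif2s3y, and ran from -0.042 to 0.085 with 1 array left out. The dim Sstr4 probe set ran from -0.22 to 0.088, positive without Gb5wt replicate 5. Causes were not tested. Over all probe sets the 12 calls became 23 with trend and robust eBayes, 27 with array weights, 44 with the adjusted threshold at 0.1 and 6493 without adjustment. They became 4 when each gene kept 1 probe set, which tests fewer. Gnb5 kept its call throughout. Reading each list gene by its probe set of largest SD moved the medians of 6 lists by more than their spread between arrays, receptor effectors to 0.18, receptor regulation and scaffold genes to 0.24 and cilium genes to 0.14 among them, and called 0 genes. Without detection calls, dim signal and background could not be told apart.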
